A study of Mus musculus with 9 samples.

Results

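The long noncoding RNAs described here were Malat1 and Neat1, which stay in the nucleus, and 6 hosts of small nucleolar RNAs (snoRNAs), Gas5, Snhg1, Snhg3, Snhg8, Snhg11 and Snhg12. They were chosen by name, as the rows of the count table whose Ensembl identifiers carry these 8 symbols, out of 48526 genes, and 7 of the 8 had enough reads to be tested. The RNA came from neural stem cells (NSCs) isolated from the subependymal zone (SEZ) of adult C57BL/6 mice and grown as neurospheres with EGF and FGF. Undifferentiated cells (0 h) were compared with cells 1 h and 6 h after differentiation had been induced by plating on an adhesive substrate without EGF, with FGF kept. There were 3 replicates at each of 3 time points and 9 libraries in all, and no time point carried a transgene or a deletion. The labels do not say whether replicates came from separate animals, so p-values measure the spread between these samples only. The cells are a culture expanded with growth factors, not the SEZ itself.

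Malat1 is among the most abundant nuclear RNAs and accumulates in nuclear speckles, the stores of splicing factors. Neat1 is made from a neighbouring gene as a short and a long isoform, and the long isoform is the scaffold of paraspeckles, nuclear bodies that bind RNA-binding proteins. In both genes the 3′ end of the long RNA is made not by polyadenylation but by RNase P, which releases a small tRNA-like RNA, and a triple helix then shields the end. The Snhg genes and Gas5 carry snoRNAs in their introns, many of which guide ribose methylation (box C/D) or pseudouridylation (box H/ACA) of ribosomal RNA. Their spliced exons are exported, and several of them, such as Gas5, are then removed by nonsense-mediated decay. A count of such a gene therefore follows the host RNA and not the snoRNA. The annotated exons of Snhg1, Snhg8 and Snhg12 each merge into 1 block, and those of Gas5 into 3, with transcripts that retain introns included. Reads from introns outside the snoRNA genes can thus be counted. Spliced and unspliced host RNA cannot be told apart in these counts, also where a host is said to fall.

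The 3′ ends of Malat1 and Neat1 are shown because they set these RNAs apart from mRNAs. The last 90 bases before each RNase P site are given on the RNA strand, with runs of at least 10 letters that occur in both in capitals. These are 2 stretches rich in T, which hold the tail, and the A-rich tail itself.
Malat1 3′ end: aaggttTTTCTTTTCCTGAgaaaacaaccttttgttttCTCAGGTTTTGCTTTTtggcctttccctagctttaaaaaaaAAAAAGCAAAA
Neat1 3′ end: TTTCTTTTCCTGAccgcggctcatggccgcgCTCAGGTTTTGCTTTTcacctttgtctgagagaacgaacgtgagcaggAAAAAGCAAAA
The first lies at chr19:5795982-5796071 and the second at chr19:5824708-5824797, both on the minus strand of GRCm38, and 40 of the 90 bases were in shared runs. The small RNAs that follow each end are given next, with shared runs of at least 6 letters in capitals.
mascRNA of Malat1: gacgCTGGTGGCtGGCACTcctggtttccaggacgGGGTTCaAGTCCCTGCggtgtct
small RNA after Neat1: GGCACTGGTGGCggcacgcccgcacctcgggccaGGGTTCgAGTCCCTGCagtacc
The first is 58 bases long (chr19:5795924-5795981) and the second, annotated as Gm27702, 56 bases (chr19:5824652-5824707). The libraries were made from mRNA, and the ends shown carry no poly(A) tail. Whether this changed the yield of Malat1 or of the long isoform of Neat1 was not tested.

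The hosts hold 28 annotated snoRNA genes on their own strand, 10 in Gas5, 8 in Snhg1, 5 in Snhg12, 2 each in Snhg3 and Snhg11 and 1 in Snhg8. The 28 include overlapping pairs annotated under 1 name, Snord80 in Gas5 and Snora16a in Snhg12. Examples from the 3 hosts that fell at 6 h, and Snora24 of Snhg8, are shown on the RNA strand with the boxes in capitals: box C (TGATGA) near the 5′ end and box D (CTGA) near the 3′ end, or the ACA close to the 3′ end.
Gm25789 in Gas5: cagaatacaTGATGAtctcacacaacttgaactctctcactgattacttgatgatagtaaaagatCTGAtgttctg
Gm22744 in Snhg1: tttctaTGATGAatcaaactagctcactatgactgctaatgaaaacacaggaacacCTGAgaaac
Snord99 in Snhg12: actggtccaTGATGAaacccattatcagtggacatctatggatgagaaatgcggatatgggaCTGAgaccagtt
Snora61 in Snhg12: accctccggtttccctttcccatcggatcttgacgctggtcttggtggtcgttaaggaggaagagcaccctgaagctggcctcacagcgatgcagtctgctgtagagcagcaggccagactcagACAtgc
Snora24 in Snhg8: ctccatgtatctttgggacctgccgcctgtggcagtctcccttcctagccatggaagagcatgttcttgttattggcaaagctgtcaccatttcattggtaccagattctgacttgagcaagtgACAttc
They lie at chr1:161038308-161038383, chr19:8725092-8725156, chr4:132310691-132310764, chr4:132310240-132310369 and, on the minus strand, chr3:123507937-123508066 of GRCm38. With box C and box D looked for within 15 bases of either end, 6 of the 10 snoRNAs of Gas5 and 5 of the 8 of Snhg1 held both, and 3 of the 5 of Snhg12 ended in the ACA arrangement. These counts include both genes of each overlapping pair, and only the exact letters were searched. A snoRNA without a match, such as Snord47 or Snord78 in Gas5, is therefore not shown to be of another kind. Of the 28, 26 had no count in any library, and Gm25129 in Snhg11 and Snora16a in Snhg12 reached at most 2 counts. Where an annotated transcript of the host keeps the intron, as in Snhg1, reads over the snoRNA overlap exons of 2 genes and STAR counts them for neither, so these zeros do not show that the snoRNAs were absent. Their levels are therefore not described here.

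The start sites of Gas5, Snhg1 and Snhg12 are shown because these 3 hosts fell at 6 h, with Snhg8 beside them. Transcripts of the translation apparatus and of many snoRNA hosts begin with a C and a run of pyrimidines, the 5′ terminal oligopyrimidine tract. Each RefSeq window (GRCm38.p6) runs from 50 bases before the annotated start to 30 after it. Capitals mark the letters TATA beginning 40 to 20 bases before the start, and a C followed by at least 4 letters that are each C or T, beginning within 3 bases of the start, both read on the transcribed strand only.
Gas5 start 2: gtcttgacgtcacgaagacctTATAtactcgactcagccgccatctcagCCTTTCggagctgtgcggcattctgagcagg
Snhg12 start: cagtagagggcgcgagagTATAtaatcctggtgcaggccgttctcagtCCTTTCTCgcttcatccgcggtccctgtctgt
Snhg8 start: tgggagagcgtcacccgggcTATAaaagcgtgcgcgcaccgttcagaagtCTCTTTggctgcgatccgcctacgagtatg
Snhg1 start: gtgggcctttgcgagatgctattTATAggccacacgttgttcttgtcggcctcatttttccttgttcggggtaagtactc
Gas5 has 2 annotated starts, of which the second is shown. The windows lie at chr1:161035116-161035195, chr4:132308628-132308707, chr3:123508307-123508386 (minus strand) and chr19:8723437-8723516. TATA began 29 bases before the start of Gas5, 32 before that of Snhg12, 30 before that of Snhg8 and 27 before that of Snhg1. TATA at this place was found in 4 of the 8 windows of the members, and in 5.81% of all 32851 windows. The pyrimidine run was found in 4 member windows (Gas5, Snhg12, Snhg8 and Snhg3) and in 11.5% of all windows, and both together in 3 member windows and in 0.700% of all. The run at Snhg1 is broken by an A and so was not counted. Snhg8 shares these letters with Gas5 and Snhg12. The level of Snhg8 did not pass any test between time points. Whether the letters at the start bear on the level of any host was not tested. Neat1 has no entry in the table of start sites.

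The total count was between 65871454 and 105592597 per library. The 12 NSC markers that were looked for, such as Nes, Sox2 and Egfr, were all expressed, with a summed level between 7694.8 and 10326 CPM (counts scaled to 1000000 per library). The summed markers of other cells were lower than this, though some single markers were not low. Among the neuronal markers, Syt1 was at 10.5 to 113.5 CPM and Gad1 at 17.1 to 51.8 CPM, where the NSC marker Sox1 was at 28.4 to 52.6 CPM. The other neuronal markers reached at most 7.47 CPM (Rbfox3), so the neuronal sum follows mostly Syt1 and Gad1. The 7 neuronal markers summed to between 35.03 and 77.6 CPM at 0 h, 41.6 and 81.4 CPM at 1 h, and 66.6 and 133.6 CPM at 6 h, and were higher at 6 h than at 0 h in each replicate. Markers of other types over all libraries summed as follows: 5 of mature oligodendrocytes to between 4.91 and 8.22 CPM, 6 of microglia to at most 0.526 CPM, and 4 of endothelium to at most 14.8 CPM. Of 3 ependymal markers, Foxj1 was at 36.4 to 90.9 CPM while Tmem212 was at most 0.0271 CPM. In such bulk samples a lower level of a gene per cell and fewer cells that express it cannot be told apart.

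The members spanned a wide range of levels. Per kilobase of annotated exons, Malat1 had a mean of 170.4 CPM over the 9 libraries and rank 172 of 18779 tested genes with a length. Gas5 followed with 31.4 CPM per kilobase, Snhg8 with 18.9, Snhg1 with 12.5, Snhg12 with 3.54, Neat1 with 2.88 and Snhg11 with 0.601. The libraries of Malat1 overlapped with no other member on this scale. Those of Gas5 and Snhg8 overlapped, as did those of Snhg8 and Snhg1, of Snhg12 and Neat1, and of Neat1 and Snhg11, so the ranges do not separate these neighbours. Within each library, however, Gas5 was above Snhg8, Snhg8 above Snhg1 and Neat1 above Snhg11 in 9 of 9. The order of Snhg12 and Neat1 turned with time: Snhg12 was higher in 3 of 3 libraries at 0 h (mean 4.26 against 1.76 CPM per kilobase) and lower in 2 of 3 at 6 h (2.91 against 3.96). The exon lengths include annotated transcripts that retain introns, and for Neat1 the 20771 bases of the long isoform, so the level per kilobase of a short or fully spliced form is understated. Gene counts do not separate the isoforms of Neat1.

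**Figure D1:**
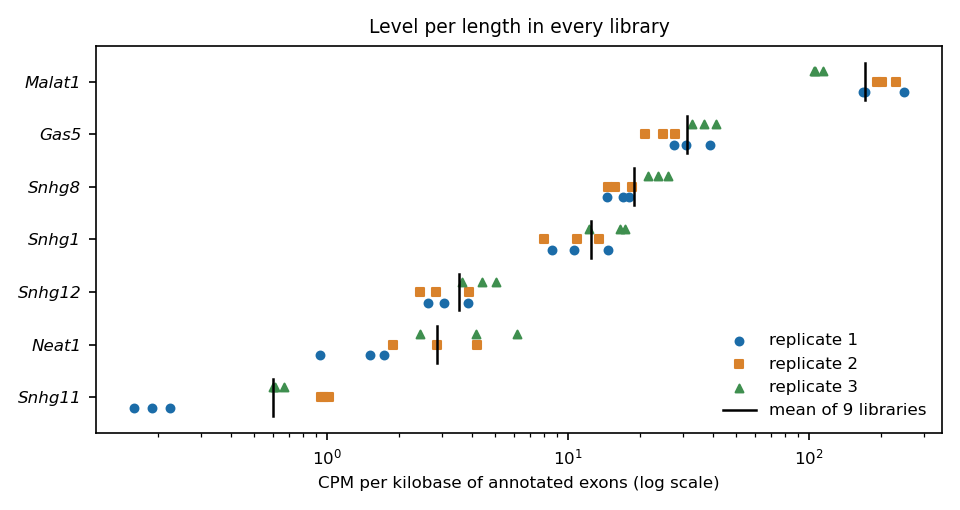
Level of the 7 tested long noncoding RNAs in CPM per kilobase of annotated exons (log axis), with 1 point per library, coloured by replicate, and a line at the mean of the 9 libraries. Malat1 stands highest (mean 170.4) and Snhg11 lowest (mean 0.601), with replicate 1 of Snhg11 far to the left of the others.

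Each time point was compared with the others to ask which of these RNAs change as NSCs begin to differentiate. With time point as the only factor in edgeR, 0 of the 7 tested members passed an adjusted p of 0.05 in any of the 3 comparisons, and DESeq2 also called 0. At an unadjusted p under 0.05, edgeR had 0 members at 1 h against 0 h, 2 at 6 h against 0 h (Snhg1 and Snhg12, both lower) and 0 at 6 h against 1 h. The share of all genes at an unadjusted p under 0.05 was not computed, so these 2 members have no background at that threshold. At an adjusted p under 0.05, this fit called 0.0424% of all 18858 tested genes at 1 h against 0 h. It called 2.42% at 6 h against 0 h and 2.14% at 6 h against 1 h. Libraries with the same replicate number deviated together across genes, and a fit that took this number as a block made more calls. At 1 h against 0 h, 1 member rose (Neat1) and 1 fell (Snhg12), where 1.36% of all tested genes were higher and 2.14% lower. At 6 h against 0 h, Neat1 rose and Gas5, Snhg1 and Snhg12 fell, where 17.4% of all genes were higher and 17.5% lower. The same 4 genes passed in the same directions at 6 h against 1 h, where 18% of all genes were higher and 17.5% lower. With 7 genes, whether the members differ from these shares was not tested. In the following, "rose" and "fell" refer to the fit with the block, and the fit without it called none of these genes.

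**Figure D2:**
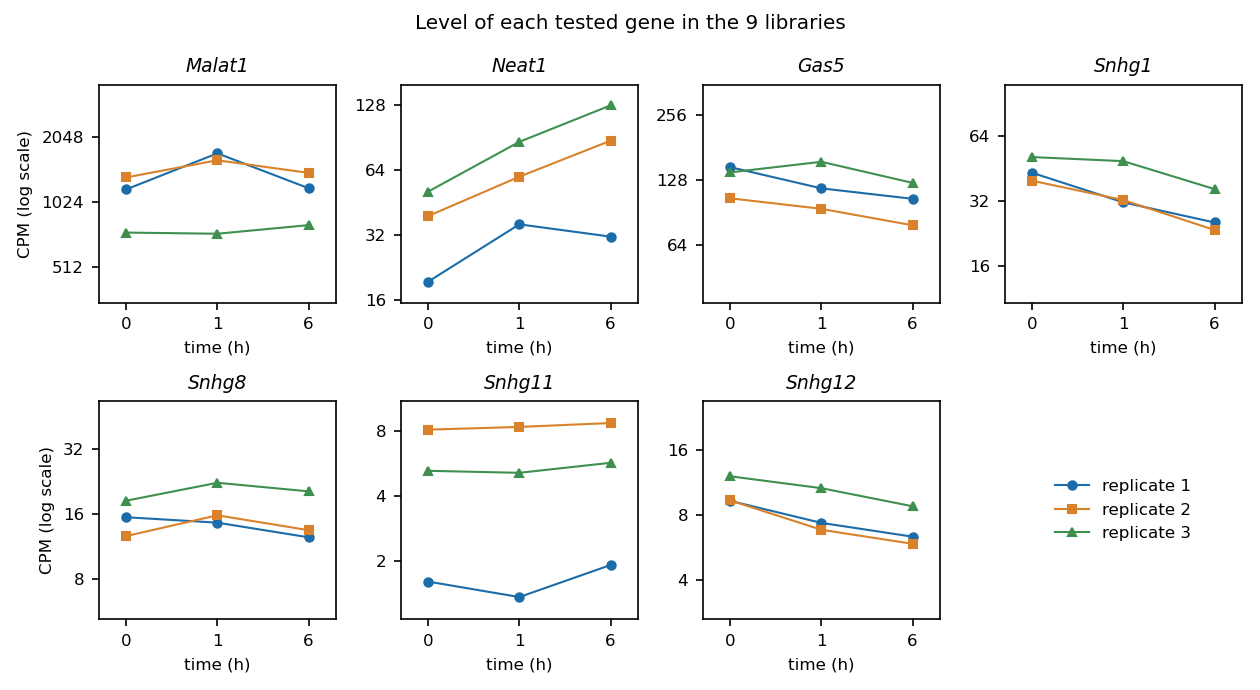
Level in CPM (log axis) of the 7 tested long noncoding RNAs at 0, 1 and 6 h, with 1 line per replicate. The lines of Snhg1 and Snhg12 descend in all 3 replicates and those of Neat1 end above their start in all 3, while the vertical gap between replicates is wide for Malat1, Neat1 and Snhg11.

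Neat1 (ENSMUSG00000092274, chr19:5824708-5845478, minus strand) rose at 1 h and was about 2-fold higher at 6 h. At 0 h it was at 19.5, 39.2 and 50.8 CPM in replicates 1, 2 and 3, at 1 h at 35.9, 59.6 and 86.5 CPM, and at 6 h at 31.5, 87.6 and 127.7 CPM. Every replicate was higher at 1 h and at 6 h than at 0 h, but replicate 1 was lower at 6 h than at 1 h and the ranges of the time points overlapped. The fold was 1.69 at 1 h against 0 h (log2 0.75 ± 0.11, SE; edgeR with the block, adjusted p = 0.00254) and 2.12 at 6 h against 0 h (log2 1.08 ± 0.11, adjusted p = 1.52e-05). Between 1 h and 6 h the log2 change was 0.33 ± 0.11 (adjusted p = 0.0356). Without the block the 3 adjusted p were 1, 0.311 and 0.755. The calls against 0 h held without any 1 of the 3 replicates (largest adjusted p 0.0237 at 1 h and 0.000685 at 6 h). The call between 1 h and 6 h was lost without replicate 2 (adjusted p = 0.297) or replicate 3 (adjusted p = 0.234), in DESeq2 with the block (adjusted p = 0.203), in a fit of only the 6 libraries compared (0.0627) and with GC and length trends removed (0.0638).

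Malat1 (ENSMUSG00000092341, chr19:5795690-5802672, minus strand) has its gene 22036 bases from Neat1 on the same strand. It passed in no comparison in edgeR on all 9 libraries without or with the block, but did in some variations of the latter. Its level was 1175, 1336 and 741.6 CPM at 0 h, 1727, 1604 and 732.5 CPM at 1 h, and 1190, 1402 and 803.0 CPM at 6 h in replicates 1, 2 and 3. Replicate 3 was the lowest at every time point, and only replicates 1 and 2 were higher at 1 h. The log2 change with the block was 0.28 ± 0.09 at 1 h against 0 h (adjusted p = 0.142), 0.07 ± 0.09 at 6 h against 0 h (adjusted p = 0.61) and -0.21 ± 0.09 at 6 h against 1 h (adjusted p = 0.109). The first and the last passed without replicate 3 (log2 0.42, adjusted p = 0.014, and -0.37, adjusted p = 0.00283), without a filter on low counts (adjusted p = 1.15e-06 and 0.000426) and with GC and length trends removed (adjusted p = 0.0116 and 0.0137). Malat1 took between 0.0723% and 0.168% of all counts of a library.

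Snhg1 (ENSMUSG00000108414, chr19:8723475-8726443, plus strand), the host of a cluster of box C/D snoRNAs, fell the most at 6 h among the 7 tested members. It was at 43.5, 39.9 and 51.4 CPM at 0 h, at 31.7, 32.5 and 49.2 CPM at 1 h, and at 25.6, 23.6 and 36.5 CPM at 6 h in replicates 1, 2 and 3. All 3 libraries at 6 h were below all 3 at 0 h, and every replicate was lower at each later time. The fold was 0.627 at 6 h against 0 h (log2 -0.67 ± 0.07, adjusted p = 1.36e-05 with the block) and 0.757 at 6 h against 1 h (log2 -0.40 ± 0.07, adjusted p = 0.000739). Both held without any 1 replicate, with a largest adjusted p of 0.0204. At 1 h against 0 h the log2 change was -0.27 ± 0.07 (adjusted p = 0.0517), which did not pass in edgeR and passed in DESeq2 with the block (adjusted p = 0.0141), with library totals (0.0418), without a filter (0.00235) and without replicate 3 (0.00738). Without the block the adjusted p at 6 h against 0 h was 0.164.

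Snhg12 (ENSMUSG00000086290, chr4:132308623-132311024, plus strand), which hosts box H/ACA snoRNAs and Snord99, fell at both later times. Its level was 9.29, 9.34 and 12.1 CPM at 0 h, 7.34, 6.82 and 10.6 CPM at 1 h, and 6.34, 5.87 and 8.77 CPM at 6 h in replicates 1, 2 and 3. The 6 h libraries again lay below all those at 0 h. It fell to a fold of 0.799 at 1 h (log2 -0.32 ± 0.08, adjusted p = 0.0399 with the block) and of 0.678 at 6 h (log2 -0.56 ± 0.08, adjusted p = 0.000138), and by 0.24 ± 0.08 on the log2 scale between 1 h and 6 h (adjusted p = 0.0327). The call at 6 h against 0 h held without any 1 replicate (largest adjusted p 0.00672). The call at 1 h was lost without replicate 1 or 2 (adjusted p = 0.2 and 0.31) and in a fit of the 6 libraries compared (0.0655). That between 1 h and 6 h was lost whichever replicate was left out (adjusted p between 0.0935 and 0.122), with library totals (0.0678), without a filter (0.0602) and with 6 libraries (0.0634).

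Gas5 (ENSMUSG00000053332, chr1:161034422-161038539, plus strand), named for its rise in growth-arrested cells, was lower at 6 h. It was at 146.3, 104.9 and 138.3 CPM at 0 h, at 116.6, 93.8 and 154.8 CPM at 1 h, and at 104.3, 78.6 and 123.6 CPM at 6 h in replicates 1, 2 and 3. The time points overlapped, and within replicates all 3 were lower at 6 h than at 0 h and at 1 h, while replicate 3 was higher at 1 h than at 0 h. The log2 change with the block was -0.11 ± 0.07 at 1 h against 0 h (adjusted p = 0.456), -0.36 ± 0.07 at 6 h against 0 h (fold 0.780, adjusted p = 0.00203) and -0.25 ± 0.07 at 6 h against 1 h (adjusted p = 0.0177). The call at 6 h against 0 h held without any 1 replicate (largest adjusted p 0.048), that at 6 h against 1 h was lost without replicate 2 (adjusted p = 0.12), and the change at 1 h passed without replicate 3 (log2 -0.24, adjusted p = 0.0235).

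Snhg8 (ENSMUSG00000104960, chr3:123507552-123508404, minus strand), the host of Snora24, passed no test. It was at 15.4, 12.6 and 18.3 CPM at 0 h, at 14.5, 15.7 and 22.2 CPM at 1 h, and at 12.4, 13.4 and 20.3 CPM at 6 h in replicates 1, 2 and 3. Replicate 3 was highest at each time, replicates 2 and 3 were higher at 1 h and replicate 1 was lower. The log2 changes with the block were 0.17 ± 0.09 at 1 h against 0 h (adjusted p = 0.32), -0.023 ± 0.087 at 6 h against 0 h (adjusted p = 0.866) and -0.19 ± 0.09 at 6 h against 1 h (adjusted p = 0.0994).

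Snhg11 (ENSMUSG00000044349, chr2:158375638-158386145, plus strand), which is annotated as protein-coding and is known as a transcript of neurons, differed between replicates far more than between times. It was at 1.60, 8.11 and 5.23 CPM at 0 h, at 1.36, 8.35 and 5.12 CPM at 1 h, and at 1.91, 8.70 and 5.69 CPM at 6 h in replicates 1, 2 and 3. Replicate 1 was the lowest and replicate 2 the highest at every time point. The means of the replicates were 2.36 apart on the log2 scale, and those of the time points 0.23 apart. The log2 change with the block was -0.039 ± 0.099 at 1 h against 0 h (adjusted p = 0.875), 0.14 ± 0.10 at 6 h against 0 h (adjusted p = 0.279) and 0.18 ± 0.10 at 6 h against 1 h (adjusted p = 0.164). The 7 neuronal markers together were also lowest in replicate 1 (35.03 to 66.6 CPM, against 77.6 to 122.8 in replicate 2 and 59.8 to 133.6 in replicate 3). Other marker sums differed between replicates too. The NSC sum was also lowest in replicate 1 (7694.8 to 8388 CPM, against 9351.1 to 10326 in the others), the ependymal sum was highest there (59.1 to 91.6 CPM, against 37.2 to 55.3), and the endothelial sum was highest in replicate 2 (7.37 to 14.8 CPM), as Snhg11 was. The part of any of these cells in the difference was not tested.

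Snhg3 (ENSMUSG00000085241, chr4:132348014-132353686, minus strand), the host of Snora73a and Snora73b, had 1 count in replicate 1 at 0 h and 0 in the other 8 libraries. A count of 0 allows up to 3 counts, that is 0.0280 to 0.0469 CPM in these libraries, by counting error only. In the annotation 86.3% of its exon bases also belong to another gene, 29.8% on the same strand and 71.5% on the opposite strand, where Gm17300 lies. Rcc1, which overlaps it on the same strand, had 56858 counts. Since reads over exons of 2 genes are not counted, reads of Snhg3 can be missing from its row, and its level is not compared.

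Sharing of exons was smaller for the other members. On the same strand it was 20.95% of the exon bases of Snhg1, 19.6% of Snhg12, 17.8% of Gas5, 15.2% of Snhg8 and under 2% of Malat1, Neat1 and Snhg11, in the hosts mostly the snoRNA genes themselves. Reads from introns that hold a snoRNA can thus be missing from the hosts.

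**Figure D3:**
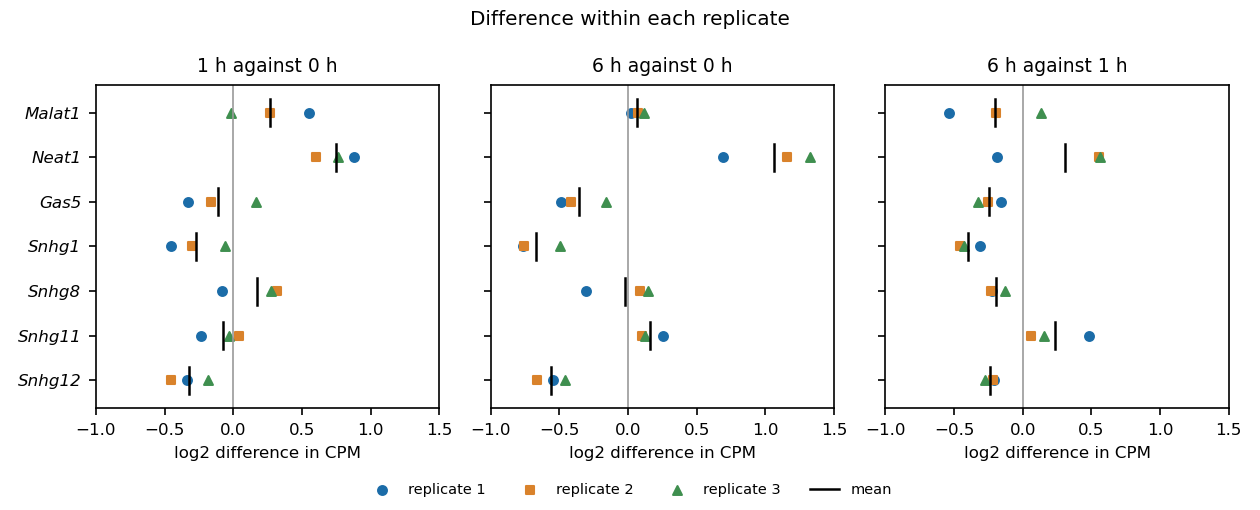
Difference in log2 CPM between time points within each replicate for the 7 tested long noncoding RNAs, with 1 point per replicate and a line at their mean. For 6 h against 0 h all 3 points of Snhg1, Snhg12 and Gas5 lie below 0 and all 3 of Neat1 above it, and Snhg8 has points on both sides.

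The spread between replicates was as large as the change with time for most members. The range of the replicate means on the log2 scale was 0.93 for Malat1, against a range of the time means of 0.27, 1.56 against 1.06 for Neat1, 0.59 against 0.35 for Gas5 and 0.55 against 0.20 for Snhg8. Snhg1 (0.53 against 0.67) and Snhg12 (0.53 against 0.56) were the 2 members whose times were further apart than their replicates. The share of all tested genes with such a spread was not computed. Nor was the share whose 6 h libraries all lie apart from those at 0 h, as in these 2 members. The highest replicate was the third for Neat1, Gas5, Snhg1, Snhg8 and Snhg12 and the second for Malat1 and Snhg11.

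**Figure D4:**
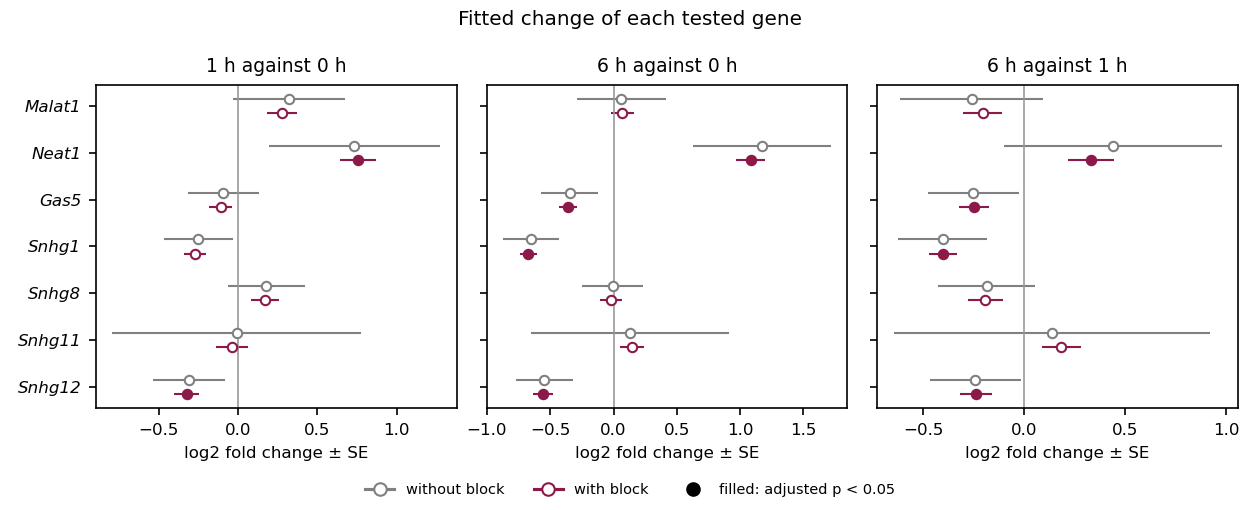
Log2 fold change with its standard error in edgeR without the replicate block (grey) and with it (dark red) for the 7 tested long noncoding RNAs in the 3 comparisons. Filled points have an adjusted p under 0.05, and all of them belong to the fit with the block: 2 at 1 h against 0 h, 4 at 6 h against 0 h and 4 at 6 h against 1 h.

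The genes of proteins that work with these RNAs were taken as lists, with the direction given by the fit with the block. Only their transcripts were counted, so a rise or fall is one of RNA, and protein levels were not measured. In that fit 17.4% of all tested genes were higher and 17.5% lower at 6 h against 0 h, 18% and 17.5% at 6 h against 1 h, and 1.36% and 2.14% at 1 h against 0 h, which is the background of each count of list genes. All genes tested had a median log2 change of 0.00 in each comparison to 2 decimals. Of the transcripts of the 4 core proteins of box C/D snoRNPs all 4 fell at 6 h against 0 h (median log2 -0.42). Nop58 fell by 0.67, Fbl, the methyltransferase, by 0.51, Nop56 by 0.34 and Snu13 by 0.32. Of the 4 of box H/ACA snoRNPs 3 fell (median -0.29): Dkc1, the pseudouridine synthase, by 0.53, Gar1 by 0.34 and Nhp2 by 0.25. Of 15 factors for the assembly and processing of snoRNPs 12 fell and 0 rose (median -0.26), among them the exonuclease Xrn2, which also fell without the block (log2 -0.31, adjusted p = 0.0405). None of these 3 lists had a gene that passed at 1 h against 0 h.

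Some of the other genes that carry snoRNAs also fell at 6 h. Of 11 tested noncoding hosts that are no members, 6 fell and 0 rose at 6 h against 0 h (median log2 -0.28), with the largest falls that passed in Snhg5 (0.51), Zfas1 (0.36), Snhg17 (0.31) and Snhg15 (0.29). The 5 that fell at 6 h against 1 h were Snhg5, Snhg15, Zfas1, Snhg6 and, outside the rule for named genes, Snhg17, and at 1 h against 0 h 0 passed. Of 24 protein-coding hosts 9 fell and 0 rose at 6 h against 0 h (median -0.14), and the other 15 did not pass. The falls were led by Taf1d (0.62), the nucleolar protein Ncl (0.61), Wdr43 (0.46) and Nop56 (0.34), and 19 fell at 6 h against 1 h (median -0.26), led by Ncl (0.57), Taf1d (0.42), the translation factor Eif4a1 (0.39) and Wdr43 (0.36). At 1 h against 0 h 18 of these 24 had a change above 0 (median 0.09) and 0 passed.

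No transcript of a paraspeckle protein on the list rose in any comparison. Of 16 transcripts of paraspeckle proteins 9 fell and 0 rose at 6 h against 0 h (median log2 -0.17). Among them Matr3 also passed in edgeR without the block (-0.35, adjusted p = 0.034). At 6 h against 1 h 10 fell, led by Hnrnpm (0.37), Ewsr1 (0.33), Matr3 (0.27) and Cpsf6 (0.23). At 1 h, when Neat1 had risen, 0 of the 16 passed. Of 11 transcripts on the list of nuclear speckle proteins 3 fell at 6 h against 0 h, against 17.5% of all genes lower. They were the splicing factors Srsf1 (0.34) and Srsf3 (0.26) and Pnn (0.18). The list also held Elac2, a tRNA-processing enzyme rather than a speckle protein, which passed in no comparison. Between 1 h and 6 h Srrm2, a scaffold of speckles, rose by 0.31, while Srsf1 fell by 0.23 and Srsf3 by 0.19.

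Of 16 transcripts of nonsense-mediated decay factors 2 fell at 1 h against 0 h, Upf2 (0.43) and Upf3b (0.21). By 6 h against 0 h 7 fell, led by Smg5 (0.32), Upf3b (0.31), Rbm8a (0.30) and Magohb (0.25), and 1 rose, Smg6 (0.18), which is named because it was the one that rose, after its value was seen. Between 1 h and 6 h 7 fell, led by Rbm8a (0.31), Magohb (0.29), Upf3a (0.27) and Magoh (0.26), and 4 rose, named after their values were seen: Upf2 (0.21), Smg6 (0.18), Upf1 (0.17) and Casc3 (0.16). Of 25 other long noncoding RNAs 10 rose and 6 fell at 6 h against 0 h (median 0.14). Mir124a-1hg, the host of the neuronal miRNA miR-124, rose also without the block, by 3.33 on the log2 scale (adjusted p = 0.0291) from 0.170 to 1.72 CPM. The summed neuronal markers were higher at 6 h as well, and their part in this rise or in that of Neat1 was not tested. Between 1 h and 6 h it rose by 2.86 (adjusted p = 0.0406). At 1 h Kcnq1ot1, an antisense RNA of the imprinted Kcnq1 region, rose (0.69, adjusted p = 0.00121) and Tug1 fell (by 0.21, adjusted p = 0.024).

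**Figure D5:**
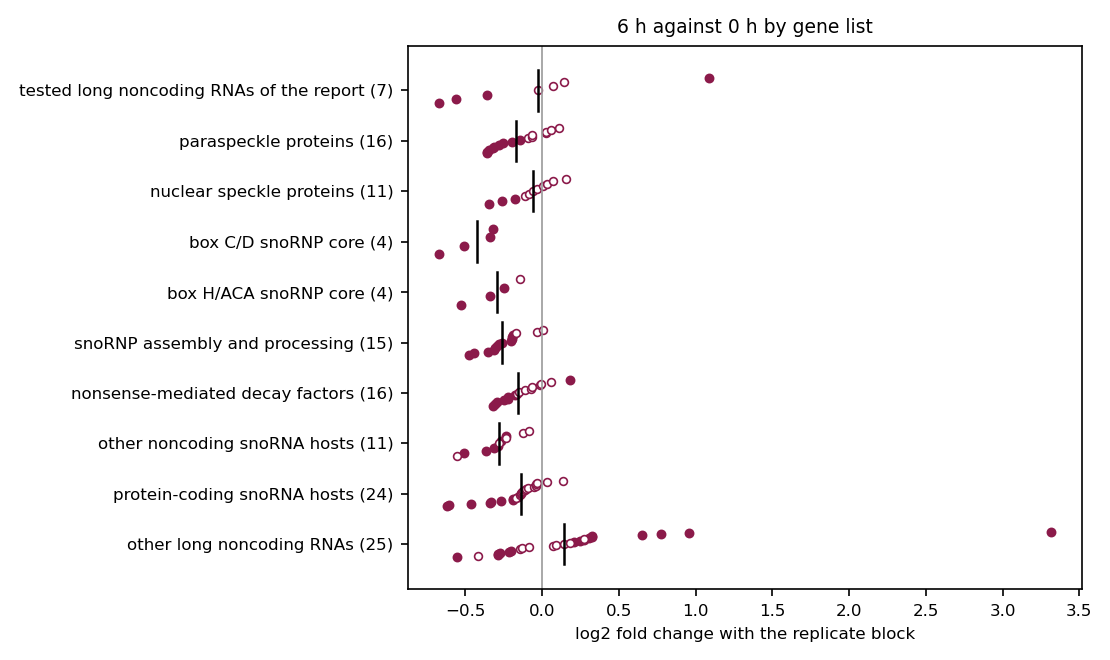
Log2 fold change at 6 h against 0 h in edgeR with the replicate block for each tested gene of the lists, with the number tested in brackets, filled where the adjusted p was under 0.05, and a line at the median of the list. The medians of the snoRNP lists lie at -0.42, -0.29 and -0.26, and that of the other long noncoding RNAs at 0.14, with Mir124a-1hg at the far right.

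The genes with the most similar pattern were found by the root-mean-square difference of log2 CPM, each centred on its own mean over the 9 libraries, among 13605 other genes with a mean of at least 1 CPM. This is a description over 9 libraries that share replicates and scaling. For Snhg12 the nearest gene was Snhg1 (0.086), followed by Spty2d1 (0.098). For Snhg1 the nearest was Gm23130 (0.026), a snoRNA gene at chr10:23786470-23786543 inside the ribosomal protein gene Rps12, and the next was Snhg12. For Gas5 they were Nifk (0.079) and Mettl1 (0.081), but 7.60% of all genes were closer than 0.2 to it. Snhg8 was nearest to Cotl1 (0.088) and Tmem259 (0.104), Malat1 to Apba2 (0.133) and Plxna4 (0.149), and Snhg11 to Lama1 (0.205) and Col5a3 (0.234). Neat1, like Snhg11, had no gene closer than 0.2, and the nearest to Neat1 were Ecm2 (0.297) and Pdk4 (0.306). This distance tends to be larger for genes that vary more. The standard deviation of log2 CPM over the libraries was 0.85 for Neat1 and 1.065 for Snhg11, against 0.32 for Gas5.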

How the data were processed

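The authors deposited raw counts of reads per gene for the 9 libraries, for which STAR 2.5.3a had placed read pairs on the mouse genome mm10 (GRCm38) and counted them on Ensembl genes. FastQC and DESeq2 1.22.1 are also named in the submitters' processing notes. The strand setting of the counting is not given in the sources used here. Positions and lengths came from GENCODE M21 (48058 of 48526 identifiers matched), promoter sequences from RefSeq (GRCm38.p6) and other sequences from GENCODE transcripts. Promoter windows were held for 7 of the 8 members.

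Counts were fitted in R 4.3.3 with edgeR 4.0.16 (filterByExpr with a minimum count of 10 and a minimum total of 15, TMM scaling, glmQLFit and glmQLFTest on all 9 libraries, time point as the group). The adjustment of p followed Benjamini and Hochberg and ran over 18858 genes. CPM are counts scaled to 1000000 of the TMM-scaled library size. Alternatives were the replicate block, DESeq2 1.42.0, RLE scaling, library totals, no filter, a mean of at least 1 CPM, 6-library fits, stricter thresholds, leaving out libraries and, added after the data had been seen, removal of GC and length trends and all variations of the fit with the block. After subtraction of the time means, libraries with the same replicate number correlated at 0.733 to 0.800 (9 pairs). The numbers, which come from the labels, thus pair the samples. Other pairs correlated at -0.462 to -0.314 (18 pairs), but the subtraction itself makes these negative when the first are high, so they are no separate evidence. The members, lists and tests were chosen with earlier results of these data known. Named from each list were up to 4 genes per comparison with the largest change past the threshold in the fit without the block or, where none passed, with it, and for each member the 2 genes of nearest pattern and the tested neighbours, of which 2 are not reported here. Figures were drawn in Python 3.11.15 with matplotlib 3.10.9. Depth was 65871454 to 105592597 counts per library. Counting error is therefore small beside the spread between replicates for the tested members, whose lowest count was 87. This refers to the spread without the block, and counting error was not compared with the smaller spread left by the block.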

Additional observations from a re-analysis of the deposited data

How the results depend on the processing

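The number of members called depended on the pairing. Against 0 without the replicate block, the block gave 2 at 1 h against 0 h, 4 at 6 h against 0 h and 4 at 6 h against 1 h, DESeq2 with the block 3, 4 and 3, and the block with GC and length trends removed 3, 4 and 4. All other alternatives without the block gave 0, including each left-out library. With the block, an adjusted p under 0.01 left 1 at 1 h and 1 at 6 h against 1 h, a minimum log2 change of 1 left 0, 1 and 0, no filter gave 4 at 1 h, and fits of only the 6 libraries compared gave 1 at 1 h and 2 at 6 h against 1 h. Leaving out 1 replicate number gave 1 to 5 members at 1 h against 0 h, 4 to 4 at 6 h against 0 h and 1 to 3 at 6 h against 1 h. Shares of all genes called were computed only for the edgeR fits of all 9 libraries without and with the block, given above. The member counts of the other fits and thresholds therefore have no background, and whether they differ from all genes was not tested. Small changes turned direction. Snhg11 at 1 h against 0 h became 0.071 with GC and length trends removed and 0.044 with the block added, and Snhg8 at 6 h against 0 h became 0.017 with library totals, 0.0078 without a filter and 0.0065 with a mean of at least 1 CPM. Leaving out 1 library without the block gave ranges across 0 for Gas5 (-0.30 to 0.062), Snhg8 (-0.026 to 0.32) and Snhg11 (-0.62 to 0.54) at 1 h against 0 h, for Malat1 (-0.15 to 0.26), Snhg8 (-0.26 to 0.14) and Snhg11 (-0.38 to 0.68) at 6 h against 0 h, and for Neat1 (-0.027 to 0.83), Snhg8 (-0.44 to 0.024) and Snhg11 (-0.37 to 0.75) at 6 h against 1 h. Leaving out 1 replicate with the block did so for Gas5 (-0.24 to 0.0070) and Snhg11 (-0.11 to 0.016) at 1 h and for Snhg8 (-0.11 to 0.13) at 6 h against 0 h. The causes were not tested. The row of Snhg3 holds too few counts for any comparison.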

Other observations

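The genes next to the members moved in either direction or passed no test. Frmd8os, which starts 145 bases beyond Neat1 on the opposite strand, had a log2 difference of 0.51 ± 0.46 (SE) at 6 h against 0 h (edgeR with the block, adjusted p = 0.427). Slc3a2, the amino acid transporter subunit whose gene starts 106 bases from that of Snhg1 on the opposite strand, rose by 0.27 ± 0.05 at 1 h against 0 h (adjusted p = 0.00932) and fell by 0.17 ± 0.05 between 1 h and 6 h (adjusted p = 0.0144), where Snhg1 fell by 0.40. Stx5a, on the other side of Snhg1, rose by 0.27 ± 0.05 at 6 h against 0 h (adjusted p = 0.00132). Trnau1ap, 739 bases from Snhg12, had a difference of -0.031 ± 0.072 at 6 h against 0 h (adjusted p = 0.778). Zbtb37, which overlaps Gas5 on the opposite strand, had a difference of -0.20 ± 0.11 at 6 h against 0 h (adjusted p = 0.178). Snhg17, a further host that lies 14058 bases from Snhg11, fell by 0.31 ± 0.05 at 6 h against 0 h (adjusted p = 0.000504), while Snhg11 did not pass. Of the genes beside Snhg3, Rcc1 fell by 0.27 ± 0.05 (adjusted p = 0.00087) and Phactr4 by 0.20 ± 0.07 (adjusted p = 0.032) at 6 h against 0 h. The neighbours Gm37362, Gm17300, Prss12, Ndst3, Ralgapb and Rab42 passed in no comparison. None of these neighbours passed without the block, where the smallest adjusted p among them was 0.193 in Snhg17 at 6 h against 0 h.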
